A study of Mus musculus with 8 samples.

Results

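The Hox cluster genes were examined in RNA-seq of the mouse testis at postnatal day 8 (P8). Members were all rows of the expression table whose symbol is Hoxa, Hoxb, Hoxc or Hoxd followed by a number, and 36 of the 22744 rows met this rule: 10 Hoxa, 9 Hoxb, 8 Hoxc and 9 Hoxd genes. Hoxa13, Hoxb1 and Hoxc12 were not analysed here. The study compared 3 libraries from wild-type testes with 3 libraries from Dmrt6 null testes, all at P8 and all on a C57BL/6 background, and the 3 libraries per genotype are described in the design as biological replicates. In addition, adult wild-type testis of a background given as "C57BL/6, Mixed" gave 1 library of chromatin precipitated with rabbit polyclonal antibodies raised to DMRT6 (ChIP) and 1 of input chromatin. The labels do not describe the null allele, and they do not say whether the testes of several animals were pooled. RNA came from whole testes, in which fewer cells of a type and less RNA per cell cannot be told apart.

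Hox genes encode homeodomain transcription factors that give cells their position along the body axis. In each cluster the genes lie in order of their position number: low numbers act towards the head, and high numbers act towards the tail and in the distal limb and the reproductive ducts. HOX proteins bind DNA together with partners of the PBX and MEIS families, and Polycomb and trithorax proteins hold the clusters in a silent or an active state. In the male tract, the posterior genes of the Hoxa and Hoxd clusters are known for patterning the epididymis, the vas deferens and the accessory glands. DMRT6, listed in the table as Dmrtb1, is a DM-domain transcription factor of spermatogonia.

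Dmrtb1 matched the labels, with 194, 510 and 254 reads in wild-type replicates 1 to 3 and 14, 25 and 26 reads in null replicates 1 to 3. The libraries held 23.8 to 29.0 M reads in genes, so that 3 reads, the most that a count of 0 allows, are worth 0.103 to 0.126 CPM (reads scaled to library size). Such limits cover counting error only. Null replicate 3 stood apart from the other libraries on the first principal component, at 54.3 against -20.2 to 1.68. Wild-type replicate 3 had no read of Crisp1, a secreted protein of the epididymis, where the other libraries had 871 to 3077. Markers of the expected cells were present: the summed CPM of 9 Sertoli cell genes was 2240 to 2420 in wild type and 1980 to 2610 in null, that of 10 germ cell genes 1340 to 1500 and 1450 to 1610, and that of 10 peritubular and stromal genes 3150 to 3220 and 2570 to 3820. Leydig cell genes summed to 791 to 961 CPM in wild type and 732 to 851 in null, and endothelial genes to 171 to 220 and 148 to 193. All 9 macrophage and leukocyte genes had lower means in null (98.8 to 137 CPM against 112 to 173 in sum), as had all 5 red blood cell genes (717 to 1250 against 1480 to 1780), and none of the genes on these lists passed the test of genotype described below. The part of these cells in the Hox values was not tested.

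Hox transcripts were found from all 4 clusters. Of the 36 members, 28 had at least 3 reads in every library, 6 had no read in at least 1 library, and none was at 0 in all 6. Together the 36 members came to 166, 144 and 124 CPM in wild-type replicates 1 to 3 and 142, 202 and 133 CPM in null replicates 1 to 3. The means were 144 ± 21.0 CPM in wild type and 159 ± 37.2 CPM in null (SD, n = 3 each), so the genotypes overlapped. Between 40.4 and 61.4% of the Hox reads of a library came from the Hoxd cluster. The values are not divided by transcript length, so levels are compared here between libraries and not between genes.

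**Figure D1:**
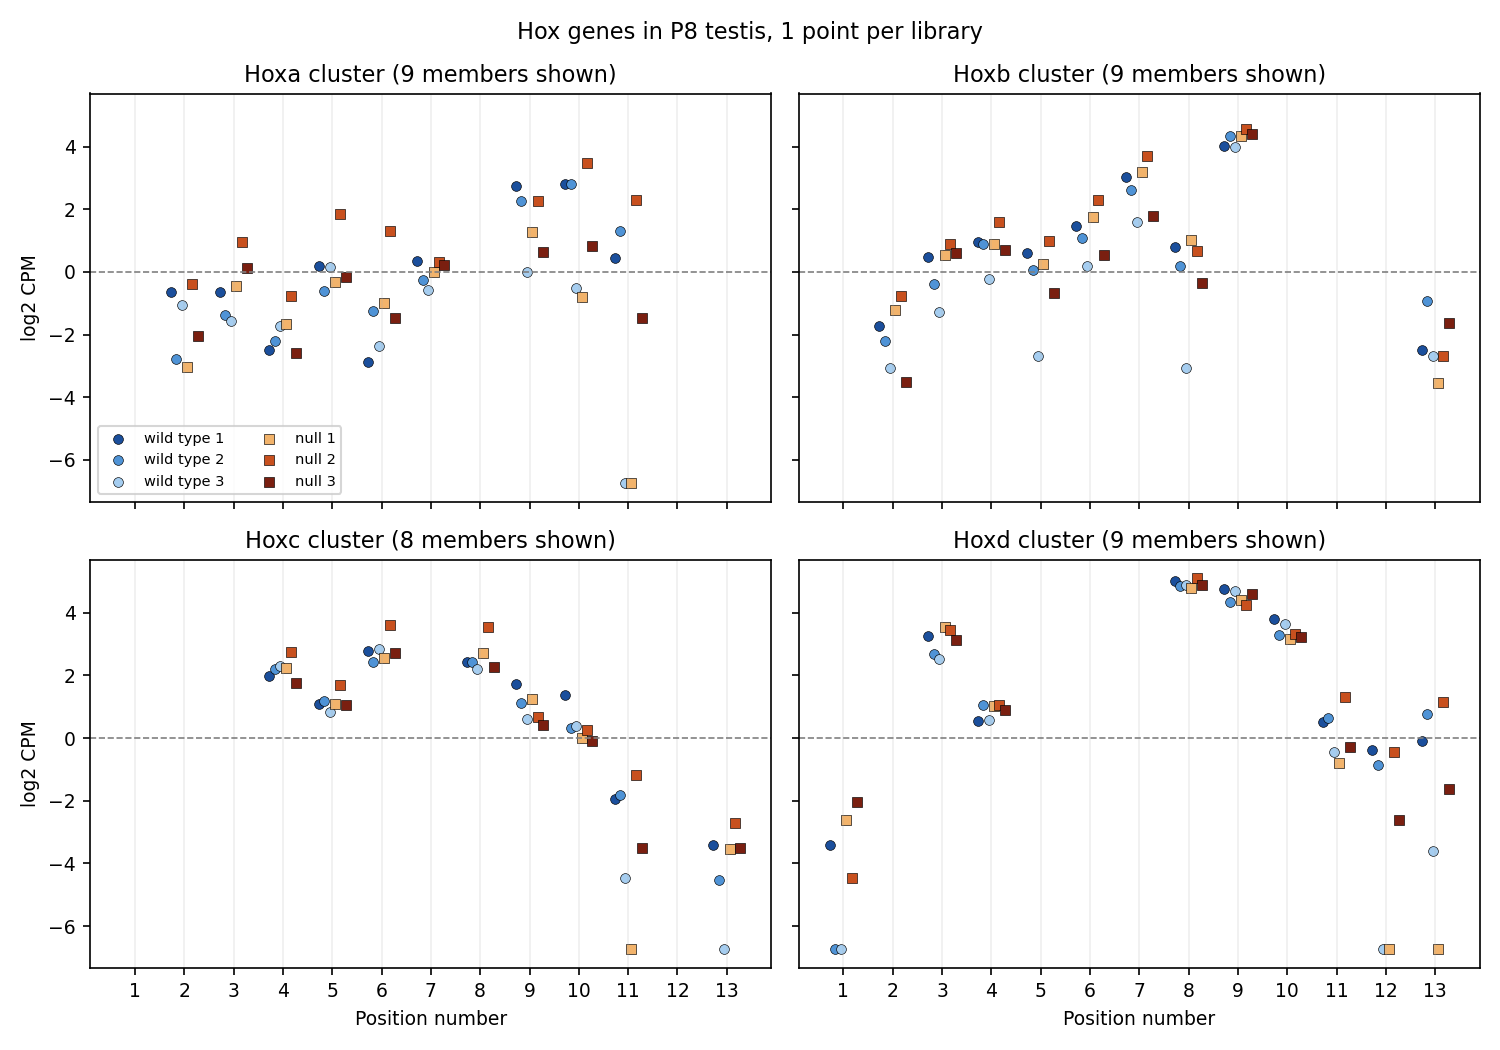
Level of the Hox genes (y axis, log2 CPM) by its position number in the cluster (x axis), with 1 panel per cluster and 1 point per library (circles wild type, squares null). The dashed line marks the mean level of 0 that a gene had to reach to be tested; points of one gene lie close together for Hoxd8, Hoxd9 and Hoxb9 and far apart for Hoxa10, Hoxa11, Hoxd12 and Hoxd13.

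The clusters differed in how much their sum varied between libraries. The Hoxd sum stayed within 70.9 to 88.0 CPM, a range of 1.24-fold. The Hoxc sum spanned 19.3 to 37.1 CPM (1.92-fold) and the Hoxb sum 21.6 to 50.7 CPM (2.35-fold). The Hoxa sum spanned 6.39-fold: it was 19.1, 17.2 and 5.06 CPM in wild-type replicates 1 to 3 and 6.65, 32.4 and 7.96 CPM in null replicates 1 to 3. Thus the high and the low Hoxa libraries were found in both genotypes. By position number, the sum over the 4 genes of position 9 varied by 1.22-fold and that over the 3 genes of position 8 by 1.37-fold. Within position 9, however, Hoxa9 alone varied by 6.78-fold. The sum over the 3 genes of position 11 varied by 13.6-fold and that over the 3 genes of position 13, at 0.152 to 2.5 CPM, by 16.4-fold.

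Hoxd8, Hoxd9 and Hoxb9, the members with the most reads, varied little between libraries. Hoxd8, a gene of the middle of the Hoxd cluster, had 773, 840 and 818 reads in the wild-type libraries and 731, 943 and 753 in the null libraries, in order of replicate number as in all such lists below. Hoxd9, which acts in the limb and the lumbar and sacral axis, had 652, 589 and 705 wild-type reads against 563, 523 and 627 null reads. Hoxb9, known from the thoracic skeleton and the mammary gland, had 390, 597 and 430 wild-type reads against 536, 647 and 547 null reads. The highest library exceeded the lowest by 1.23-fold, 1.44-fold and 1.50-fold in CPM for these 3 genes, and by 1.41-fold for Hoxd4, which had fewer reads.

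The most posterior Hoxa and Hoxd genes behaved otherwise, and their promoters are shown here because their reads moved together across libraries. These are the 250 bases upstream of the RefSeq start of Hoxa11 (chr6:52245811-52246060, minus strand), Hoxd11 (the nearer to Hoxd10 of its 2 listed starts, chr2:74682073-74682322, plus strand) and Hoxd13 (chr2:74667975-74668224, plus strand), in GRCm38.p6, each 5′ to 3′.
Hoxa11: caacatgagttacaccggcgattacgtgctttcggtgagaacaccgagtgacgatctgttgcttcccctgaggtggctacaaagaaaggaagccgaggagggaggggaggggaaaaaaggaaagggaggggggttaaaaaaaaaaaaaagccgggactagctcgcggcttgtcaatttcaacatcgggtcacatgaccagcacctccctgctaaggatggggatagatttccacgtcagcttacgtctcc
Hoxd11: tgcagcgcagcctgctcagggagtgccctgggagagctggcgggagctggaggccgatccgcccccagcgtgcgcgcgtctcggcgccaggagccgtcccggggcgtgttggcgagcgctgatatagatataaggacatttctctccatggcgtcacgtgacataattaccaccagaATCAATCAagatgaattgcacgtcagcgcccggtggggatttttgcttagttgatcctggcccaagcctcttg
Hoxd13: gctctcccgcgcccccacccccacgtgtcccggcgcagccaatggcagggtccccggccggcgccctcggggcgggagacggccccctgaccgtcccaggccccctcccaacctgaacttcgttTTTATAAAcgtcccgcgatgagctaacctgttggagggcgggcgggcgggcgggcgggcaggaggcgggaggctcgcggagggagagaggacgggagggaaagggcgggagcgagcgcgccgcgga
Capitals in Hoxd11 mark a match to TGATNNAT on the opposite strand, a PBX-HOX motif, 73 bases before the start, and capitals in Hoxd13 mark a pair of overlapping matches to TATAAA, one on each strand, 126 and 124 bases before the start. The set of RefSeq promoters used here held 20 of the 36 members, with 22 starts in all. The members not in this set were not searched. On either strand TGATNNAT was found in 3 of the 22 (Hoxa2, Hoxb8 and Hoxd11) and in 7.68% of all 32851 promoters, and TATAAA in 4 (Hoxa10, Hoxb8, Hoxd4 and Hoxd13) and in 12.4% of all. The letters ACANTGT, the core of the DMRT motif, were in none of the 22 windows and in 6.47% of all. None of these motifs was in the window of the other Hoxd11 start, which is not shown. Motif matches are descriptions of the sequence only. The median GC content was 56.8% over the Hox windows and 52.4% over all.

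Hoxa10, required for descent of the testis, had 167, 205 and 19 reads in the wild-type libraries and 15, 309 and 46 in the null libraries. Its highest library exceeded its lowest by 19.6-fold in CPM. Hoxa11, a gene of the vas deferens and the uterus, had 32, 72 and 0 wild-type reads against 0, 134 and 9 null reads. Both genes were high in wild-type replicates 1 and 2 and in null replicate 2, and low in wild-type replicate 3 and in null replicates 1 and 3, so the genotypes overlapped.

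The same libraries were high for the posterior end of the Hoxd cluster, known for digits and the distal genital tract. Hoxd13 had 22, 50 and 2 wild-type reads against 0, 61 and 8 null reads, and Hoxd12 had 18, 16 and 0 wild-type reads against 0, 20 and 4 null reads. Hoxd11 had 34, 45 and 20 wild-type reads against 15, 68 and 21 null reads, a 4.32-fold range in CPM. Hoxc11 followed them at a lower count, with 6, 8 and 1 wild-type reads against 0, 12 and 2 null reads. At the depth of wild-type replicate 3 and null replicate 1 a count of 0 allows up to 0.109 and 0.114 CPM. Hoxa9, next to Hoxa10, had 159, 141 and 27 wild-type reads against 63, 132 and 40 null reads, again highest in wild-type replicates 1 and 2 and null replicate 2.

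Hoxb5 to Hoxb8, of the middle of the Hoxb cluster, were lowest in wild-type replicate 3 but not low in null replicate 1. Hoxb7, a gene of the nephric duct, had 194, 178 and 83 wild-type reads against 242, 362 and 89 null reads. Its neighbour Hoxb8, which the table places in part on the same bases and strand, had 41, 33 and 3 wild-type reads against 53, 44 and 20 null reads. Hoxb6 had 65, 62 and 31 wild-type reads against 88, 136 and 37 null reads, and Hoxb5, active in the lung and gut mesoderm, had 36, 30 and 4 wild-type reads against 31, 55 and 16 null reads. In all 4 genes null replicates 1 and 2 lay above null replicate 3.

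The sum of markers of the epididymis, efferent ducts and rete testis was lowest in wild-type replicate 3, as were Hoxb5 to Hoxb8. Single markers differed in their pattern. Of 17 such markers 11 had rows (Crisp4, Defb15, Lcn5, Lcn9, Rnase10 and Rnase9 were not analysed here), and they summed to 224, 175 and 27.6 CPM in wild-type replicates 1 to 3 and 226, 241 and 83.4 in null replicates 1 to 3. Thus the range was 27.6 to 224 CPM in wild type and 83.4 to 241 in null, and 9 of the 11 were lowest in wild-type replicate 3. Much of the sum came from Crisp1 and Cdh16, with 102 and 69.6 of the 224 CPM in wild-type replicate 1. Crisp1 had 2432, 2751 and 0 wild-type reads against 2712, 3077 and 871 null reads. Cdh16, a cadherin of kidney and duct epithelium, had 1658, 1208 and 209 wild-type reads against 2070, 1652 and 555 null reads. Both were high in null replicate 1, where the Hoxb5 to Hoxb8 reads were high and those of Hoxa10, Hoxa11 and Hoxd13 were low. Aqp9, a water channel of the epididymis and efferent ducts, was low in null replicate 1 as well, with 85, 86 and 12 wild-type reads against 30, 138 and 15 null reads. In wild-type replicate 3 Crisp1 and 1 of 2 rows named Ces5a were at 0, and Lcn8 was at 0 in null replicate 3. Pax2 had 49, 44 and 1 wild-type reads against 34, 52 and 69 null reads, and so was highest in null replicate 3. Pax8 had 376, 198 and 211 wild-type reads against 217, 297 and 117 null reads, and so was lowest there. The part of duct tissue in the Hox values was not tested.

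**Figure D2:**
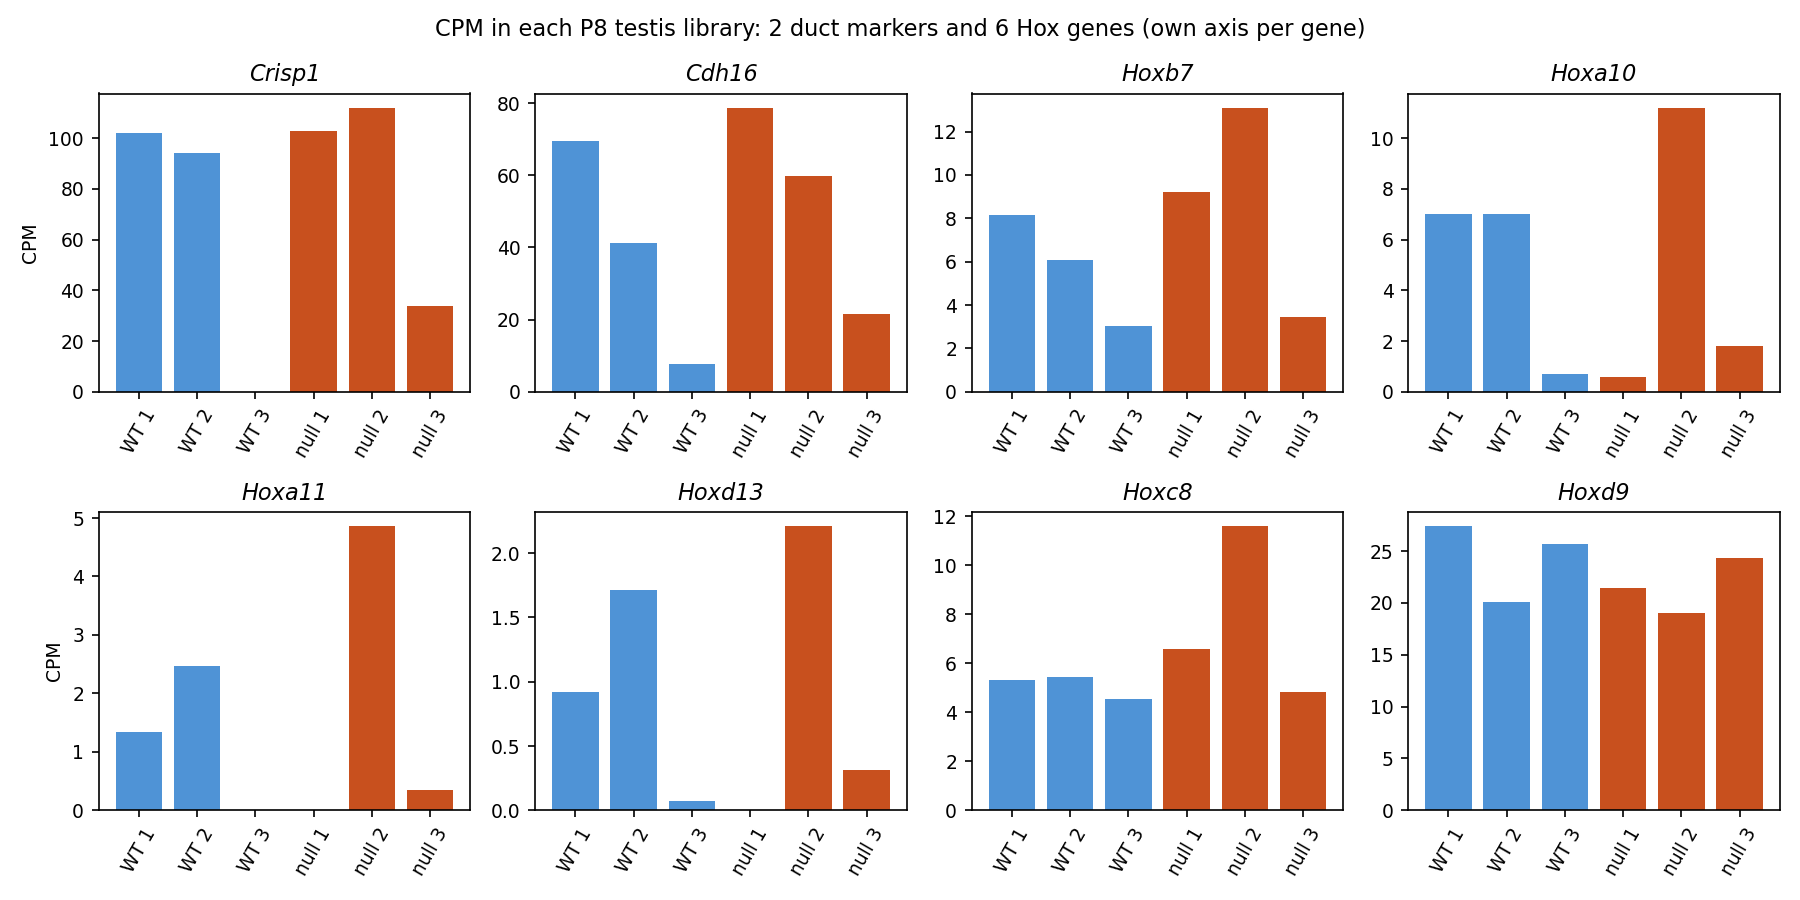
CPM (y axis, from 0, a separate scale for each gene) in each of the 6 libraries (x axis) for the duct markers Crisp1 and Cdh16 and for 6 Hox genes, with wild type in blue and null in orange. Hoxa10, Hoxa11 and Hoxd13 are high in wild-type replicates 1 and 2 and null replicate 2, Hoxb7 follows Cdh16 in being low in wild-type replicate 3 and null replicate 3, and Hoxd9 varies by 1.44-fold.

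Null replicate 2 was the highest library for 25 of the 36 members and for 14 of the 21 that were tested, whereas it was the highest for 17.0% of all tested rows of the table. Wild-type replicate 3 was the lowest for 14 of the 36 and for 10 of the 21, against 19.5% of all tested rows. The members of positions 5 and 6 in the Hoxa cluster stood out only in null replicate 2: Hoxa5, a regulator of lung and axial development, had 27, 19 and 30 wild-type reads against 21, 100 and 23 null reads, and Hoxa6 had 3, 12 and 5 wild-type reads against 13, 67 and 9 null reads. The table places both inside the longer gene model of Hoxa3 on the same strand, so reads may be split between them.

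The scatter of the tested members around their genotype means was wide for genes of low level. The median residual SD, on the log2 scale, was 0.43 for the 21 members and 0.20 for all tested rows, and 17 of the 21 lay above the latter. Among rows with a mean of 0 to 2 log2 CPM it was 0.61 for 12 Hox genes and 0.36 for all rows, and from 2 to 4 it was 0.40 for 6 Hox genes and 0.25. From 4 to 6 log2 CPM it was 0.16 for 3 Hox genes and 0.18 for all rows.

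Null was then compared with wild type to ask which Hox genes differ without DMRT6. Each change is the null mean less the wild-type mean in log2 CPM, with the standard error (SE) of limma, which was fitted on all 16634 rows with a mean of at least 0 log2 CPM and adjusted over them by the Benjamini-Hochberg method. Of the 36 members 21 entered, from Hoxa7 at a mean of 0.00 upwards, and 15 stayed out, from Hoxb8 at -0.12 downwards. None of the 21 passed an adjusted p of 0.05 (range 0.755 to 0.999), as 0.00601% of all tested rows did. The targeted gene Dmrtb1, with a change of -3.78 (SE 0.36), did not pass either (adjusted p 0.0516 by limma). It passed with no filter (adjusted p 0.0297 by limma). A gene that does not pass in this fit is thus not shown to be unchanged. At an unadjusted 0.05 there were 2, Hoxb3 and Hoxd3, against 3.47% of all rows, and limma's voom on the recovered reads also gave 0 adjusted and 2 unadjusted. The 3 null libraries lay above the 3 wild-type libraries for 1 tested member (5.06% of all rows) and below them for 1 (6.02%).

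By direction of the mean alone, 14 members were higher and 7 lower in null, with a median change of 0.26, where all tested rows had 8592 higher and 8042 lower with a median of 0.01. Of the 9 tested duct markers 7 were higher and 2 lower in null, and none passed. Over all 36 members with no filter, 23 were higher and 13 lower, with a median of 0.30. The median over the tested members was -0.05 without null replicate 2, with 8 higher and 9 lower of 17, and 0.14 without wild-type replicate 3. These are the libraries in which the members were most often highest and lowest. The single changes ran from -0.63 to 1.08, and their SE from 0.13 to 1.19.

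**Figure D3:**
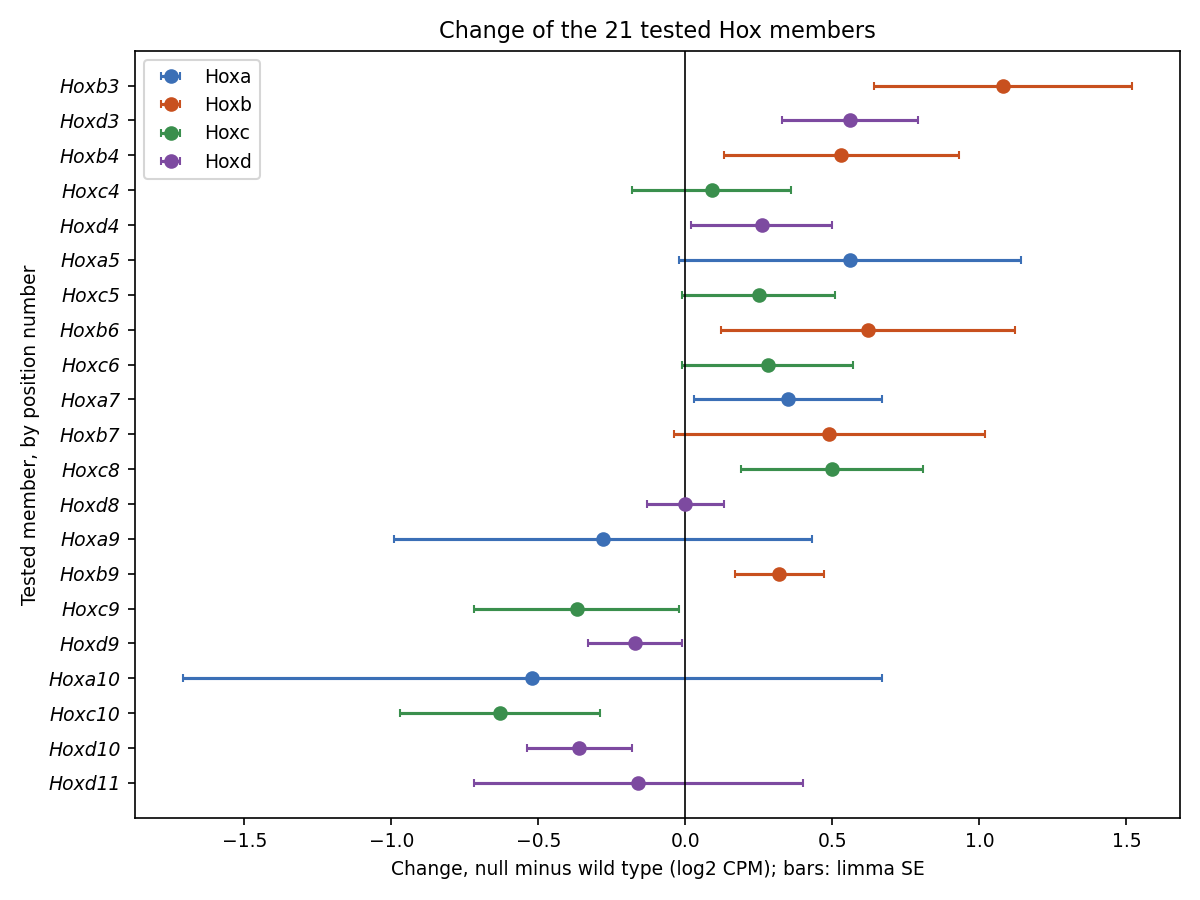
Change of the 21 tested Hox genes in null against wild type (x axis, log2 CPM, points; bars are the SE of limma, n = 3 libraries per genotype), ordered by position number (y axis) and coloured by cluster. Genes of positions 3 to 8 lie at or right of 0 in this fit (Hoxd8, at 0.00, and with library weights Hoxa5 and Hoxc6 lie left of it in others), those of positions 9 to 11 lie left of it except Hoxb9 (and Hoxc9 with library weights), and no gene passed the adjusted threshold. Leaving out single libraries moved further genes across 0. Without null replicate 2, Hoxc4 and Hoxc6 lay left of it, and Hoxa5, Hoxa7, Hoxb3 and Hoxd11 were under the filter. Without wild-type replicate 2, 4 of the 8 genes of positions 9 to 11 lay right of it.

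All 5 tested members of positions 1 to 4 had a higher mean in null, with a median change of 0.53. It was 0.25 without null replicate 2 and 0.19 without wild-type replicate 3. When wild-type replicate 1 was left out 1 of the 5 was lower in null. Without null replicate 2 only 4 were tested, as Hoxb3 was then under the filter, and 1 of the 4 was lower. Hoxb3, of the hindbrain and pharyngeal arches, had 33, 22 and 11 wild-type reads against 38, 51 and 39 null reads, or -0.40 ± 0.88 and 0.68 ± 0.19 log2 CPM (SD, n = 3 each). Its null libraries all lay above the wild-type ones, and the change of 1.08 (SE 0.44) had an adjusted p of 0.755 by limma, and was 0.64 without wild-type replicate 3. Hoxd3, which patterns the neck vertebrae, had 227, 188 and 158 wild-type reads against 306, 302 and 227 null reads, or 2.82 ± 0.38 and 3.38 ± 0.21 log2 CPM. The highest wild-type library overlapped the lowest null library, and the change was 0.56 (SE 0.23, adjusted p 0.755 by limma). It passed only with library weights (0.76, adjusted p 0.0442), a fit in which null replicate 1 had a weight of 19.32 and null replicate 3 one of 0.15.

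Hoxa3, of the pharyngeal arches and thymus, was below the filter and had 15, 11 and 9 wild-type reads against 19, 53 and 28 null reads. Its null libraries also lay above the wild-type ones, the lowest null library at -0.45 and the highest wild-type library at -0.65 log2 CPM. The change between the means was 1.41 (SE 0.46, adjusted p 0.796 by limma with no filter). The 3 genes of position 3 summed to 11.5, 7.55 and 6.48 CPM in wild type and 13.8, 14.7 and 11.4 CPM in null. The highest wild-type library and the lowest null library were thus about equal.

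The tested position 4 genes overlapped between genotypes. Hoxb4, studied in blood stem cells, had 46, 54 and 23 wild-type reads against 49, 83 and 42 null reads, a change of 0.53 (SE 0.40) that was 0.27 without null replicate 2 and 0.15 without wild-type replicate 3. Hoxd4 had 35, 60 and 41 wild-type reads against 53, 57 and 48 null reads (0.26, SE 0.24, or 0.42 without wild-type replicate 2), and the table places it inside the same-strand model of Hoxd3. Hoxc4 had 94, 135 and 134 wild-type reads against 124, 184 and 87 null reads, a change of 0.09 (SE 0.27) that was -0.16 without null replicate 2. The remaining anterior members were untested: Hoxa2 had 4 to 15 reads in wild type and 3 to 21 in null, Hoxa4 had 4 to 8 and 4 to 16, and Hoxb2 had 3 to 7 and 2 to 16. Hoxd1 had 2, 0 and 0 wild-type reads against 4, 1 and 6 null reads.

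The 8 tested members of positions 5 to 8 had means in null at or above wild type, except that Hoxd8 turned lower with log2(CPM + 1), median centring, quantile normalization, voom and array weights, and Hoxa5 and Hoxc6 with array weights. Their median change was 0.42. It was 0.07 over the 6 members tested without null replicate 2, where Hoxa5 and Hoxa7 were under the filter. It was 0.15 over the 10 members tested without wild-type replicate 3. The genotypes overlapped in each of the 8. The larger changes were those of Hoxb6 (0.62, SE 0.50), Hoxa5 (0.56, SE 0.58), Hoxc8 (0.50, SE 0.31) and Hoxb7 (0.49, SE 0.53). Leaving out 1 library at a time gave 0.23 (without null replicate 2) to 1.12 (without null replicate 3) for Hoxb6. For Hoxa5 it gave 0.30 (without wild-type replicate 2) to 0.95 (without null replicate 1). This range lacks the fit without null replicate 2, in which Hoxa5 was under the filter. In null replicates 1 and 3 Hoxa5 lay at -0.31 and -0.15 log2 CPM, against a wild-type mean of -0.09. For Hoxc8 it gave 0.15 (without null replicate 2) to 0.78 (without null replicate 3), and for Hoxb7 0.09 (without null replicate 2, and likewise without wild-type replicate 3) to 1.05 (without null replicate 3). Hoxc8, a gene of the thoracic axis, had 127, 159 and 125 wild-type reads against 173, 320 and 125 null reads, so that null replicate 3 lay within the wild-type range. Hoxc6, its neighbour, had 162, 159 and 195 wild-type reads against 153, 339 and 169 null reads, and its change of 0.28 (SE 0.29) was -0.05 without null replicate 2. Hoxc5 had 50, 66 and 49 wild-type reads against 56, 88 and 54 null reads (0.25, SE 0.26, or 0.05 without null replicate 2). Hoxa7 had 30, 24 and 18 wild-type reads against 26, 34 and 30 null reads (0.35, SE 0.32, or 0.14 without wild-type replicate 3). Hoxd8 gave the smallest change of the set, 0.00 (SE 0.13), between means of 4.92 ± 0.09 and 4.92 ± 0.16 log2 CPM, and its sign differed between alternatives.

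Of the 8 tested members of positions 9 to 13, 7 had a lower mean in null and 1, Hoxb9, a higher one, as did Hoxc9 (0.11) with array weights, and the median change was -0.32, against -0.05 without wild-type replicate 1. This split depended on single libraries. It was 4 higher and 4 lower without wild-type replicate 2. Without wild-type replicate 1, null replicate 1 or null replicate 3 it was 3 higher and 5 lower. Hoxc10, a gene of the lumbar axis and hindlimb, had 61, 36 and 36 wild-type reads against 26, 33 and 24 null reads, or 0.69 ± 0.58 and 0.06 ± 0.19 log2 CPM. Its null libraries all lay below the wild-type ones, and the change was -0.63 (SE 0.34, adjusted p 0.755 by limma), or -0.30 without wild-type replicate 1. Hoxd10, of the lumbar spinal cord and hindlimb, had 335, 287 and 343 wild-type reads against 234, 273 and 238 null reads, a change of -0.36 (SE 0.18). Only the lowest wild-type library and the highest null library overlapped in CPM. Hoxc9 had 78, 63 and 42 wild-type reads against 62, 44 and 34 null reads (-0.37, SE 0.35), and its change was -0.09 when wild-type replicate 1 was left out and -0.64 when wild-type replicate 3 was. Hoxd9 had a change of -0.17 (SE 0.16) with overlapping genotypes, and leaving out 1 library gave -0.30 (without wild-type replicate 2) to -0.08 (without wild-type replicate 1 or null replicate 2).

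Hoxb9 had a change of 0.32 (SE 0.15), from 4.12 ± 0.20 to 4.44 ± 0.10 log2 CPM, with its highest wild-type library about equal to its lowest null library. The changes of Hoxa10 (-0.52, SE 1.19), Hoxa9 (-0.28, SE 0.71) and Hoxd11 (-0.16, SE 0.56) were smaller than their SE and turned positive when single libraries were left out. The posterior members under the filter that are not yet given were Hoxb13, of the prostate, with 4, 15 and 4 wild-type reads against 2, 4 and 8 null reads, and Hoxc13, of hair and nails, with 2, 1 and 0 wild-type reads against 2, 4 and 2 null reads.

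HOX partners and regulators of the clusters were expressed at P8. Of 30 genes listed, 23 had rows and 21 were tested: the 11 genes of the PBX, MEIS, PKNOX and TGIF families and the 10 regulators. None passed the adjusted threshold by limma, and none had an unadjusted p below 0.05. Among them 15 were higher and 6 lower in null, with a median change of 0.12. Those of smallest p were Pbx2 (0.28, SE 0.15) and Pknox1 (0.18, SE 0.11), both DNA-binding partners, the Polycomb subunit gene Suz12 (0.18, SE 0.11) and the repressor gene Tgif2 (0.34, SE 0.21), each with an adjusted p of 0.755 by limma. Pbx2, Suz12, Pknox1 and Tgif2 were all highest in null replicate 3, as were 34.5% of all tested rows. The median level over the tested rows was 4.88 log2 CPM in null replicate 3 and 4.72 to 4.75 in the other libraries. Without null replicate 3 the change was 0.12 for Pbx2, 0.10 for Suz12 and 0.09 for Tgif2. Without both libraries numbered 3 the changes of the 4 were 0.06, 0.12, 0.19 and 0.08.

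Meis2, a HOX partner of limb and neural tissue singled out here after its values were seen, had 421, 476 and 271 wild-type reads against 191, 662 and 216 null reads. It was high and low in the same libraries as Hoxa10, and its change was -0.32 (SE 0.45). Cdx1 and Mnx1, homeobox genes related to the clusters, were under the filter, with 4 to 14 and 2 to 8 reads in wild type and 0 to 6 and 2 to 5 in null.

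DMRT6 peaks from adult testis were then set beside the clusters. The authors' list holds 14862 peaks in mm9 coordinates, called on 1 ChIP and 1 input library, and each peak's score is the authors' own value (median 94.7, lowest 50.02). The 4 clusters, from the first to the last Hox gene, lie on chromosomes 6 (Hoxa), 11 (Hoxb), 15 (Hoxc) and 2 (Hoxd), and the last 3 of these span chr11:96055630-96217003 (Hoxb), chr15:102751534-102867274 (Hoxc) and chr2:74506367-74603200 (Hoxd). They held 3 peaks, 1 in Hoxa and 2 in Hoxb, in 0.465 Mb. That is 6.46 per Mb (exact 95% Poisson interval 1.33 to 18.9, counting error only), against 6.44 per Mb over the same 4 chromosomes and 5.77 over the list.

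The peak in the Hoxa cluster (chr6:52141695-52141884, score 60.65) had its middle 37 bp upstream of the 5' end of Hoxa4, inside the longer model of Hoxa3, and 9.79% of peaks had a lower score. In the Hoxb cluster one peak (chr11:96179111-96179306, score 89.34, with 45.1% of peaks lower) lay inside Hoxb4, 1210 bp from its 5' end and 5432 bp upstream of that of Hoxb3. The other (chr11:96101404-96101556, score 52.86, with 3.01% lower) lay between Hoxb13 and Hoxb9, 31291 bp upstream of Hoxb9, and the nearest row was Gm11539 at 8467 bp. Outside the clusters but within 50 kb, 2 peaks lay beside Hoxa, with scores of 84.61 and 179.53, and 2 beside Hoxc, with scores of 89.18 and 79.71. The nearer of the Hoxc pair lay 2.68 kb beyond Hoxc4 (chr15:102869892-102870021). No peak lay within 50 kb of the Hoxd cluster.

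The 250 bases upstream of the RefSeq start of Hoxb4, a member with a peak in its body, are shown in GRCm38.p6 (chr11:96318017-96318266, plus strand), a build in which the peaks are not placed.
Hoxb4: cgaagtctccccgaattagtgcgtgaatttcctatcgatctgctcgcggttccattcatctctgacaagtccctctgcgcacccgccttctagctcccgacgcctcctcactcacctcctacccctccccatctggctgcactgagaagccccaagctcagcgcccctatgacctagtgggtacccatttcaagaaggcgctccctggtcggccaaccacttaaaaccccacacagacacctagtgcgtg
This window held none of the 3 motifs. The sequence under the peak is not printed.

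**Figure D4:**
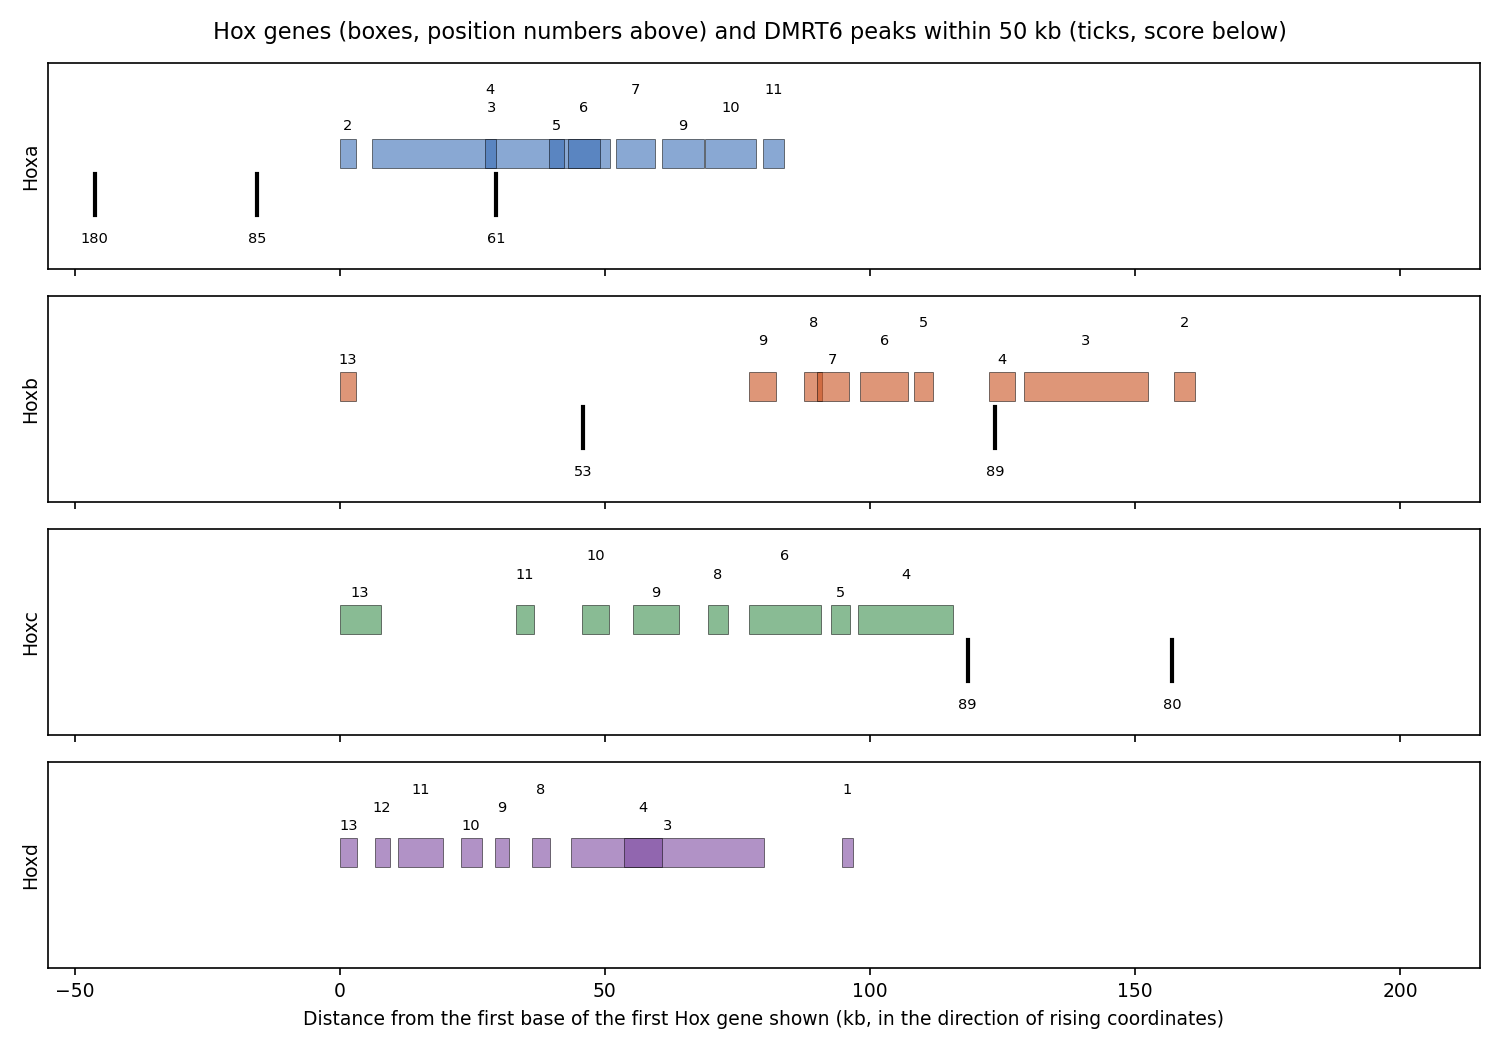
The 4 Hox clusters drawn to scale (x axis, kb from the first base of the first Hox gene shown in each cluster), with genes as boxes under their position numbers and DMRT6 peaks within 50 kb as ticks above their scores. There are 3 peaks inside the clusters, 1 in Hoxa and 2 in Hoxb, and none in or near Hoxd.

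The middle of a peak was at most 10 kb from the 5' end in 3 of the 36 members, Hoxa4, Hoxb3 and Hoxb4, or 8.33%, and Hoxb3 and Hoxb4 share 1 peak. The share was 27.9% over all rows of the table, 31.2% over the tested rows and 18.8% over rows under the filter. Of the tested members 2 of 21 had such a peak. The nearest peak lay at a median of 40.3 kb from a Hox 5' end (0.037 to 118 kb), against 30.8 kb over all rows and 27.4 kb over tested rows. The cofactor list had 10 of 23 genes with such a peak, or 43.5%. Neither Hoxb3 nor Hoxb4, the tested members with a peak, passed the test of genotype at P8, and the peaks come from adult testis and not from P8.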

How the data were processed

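RNA-seq was made from 6 whole P8 testis libraries, 3 per genotype, and ChIP-seq from adult testis as 1 ChIP and 1 input library. The expression values are log2 CPM deposited by the authors in 1 table with mm9 coordinates. The submitters' processing notes name STAR 2.3.0e, Bowtie2, Picard, edgeR and mm9 without roles; the read counter and whether it used strand are not stated in the labels or headers. By the table's coordinates 9 Hox rows overlap another row on the same strand and 13 on the opposite strand, and such reads cannot be assigned with certainty. Whole reads were recovered from the log2 CPM: 100% of values were whole at a tolerance of 1e-06, with a mean prior of 0.25 reads. The peak list gives a score per peak, deposited by the authors; its scale and the ChIP depth are unknown.

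Genes with a mean of at least 0 log2 CPM over the 6 libraries entered limma-trend (limma 3.58.1, R 4.3.3) with a single term, genotype, Benjamini-Hochberg adjustment over all tested rows and a threshold of 0.05. No pseudocount was added to the authors' prior. The script was tested on simulated data. A gene was counted with a peak where the middle of one was at most 10 kb from the gene's 5' end, taken as the outer edge of its listed coordinates. p-values measure the spread between these libraries only.

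Those members with a mean of at least 0 have values in every library, and 1 member under the filter enters counts and sums only and is not reported here by itself. Of the list of HOX partners, Hox cluster neighbours and ParaHox genes, and cluster regulators, the 4 of smallest p are named, and also every other row inside a cluster and the row nearest to each peak. The members and lists were chosen with earlier results of these data known. Alternatives were no filter, a mean of at least 2, quantile normalization, median centring, log2(CPM + 1), voom, array weights, a replicate block, and leaving out each library. For the peaks they were windows of 5 and 50 kb, a score of at least 100, any overlap, and a 50 kb margin. Promoters come from RefSeq (GRCm38.p6); no position was converted between builds.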

Additional observations from a re-analysis of the deposited data

How the results depend on the processing

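Of 357 values of single named genes under the alternatives, 333 kept their direction and side of the threshold, 23 changed direction and 1, Hoxd3 with array weights, passed the threshold (0.76, adjusted p 0.0442 by limma; 0.0442 to 1.00 over all its alternatives), which makes the count of Hox members past the threshold 1 in that fit. The fitting of those weights gave a convergence warning, and it called 136 rows in all; the other alternatives gave 0 Hox members. Array weights also turned Hoxa5 to -0.07, Hoxc6 to -0.07, Hoxc9 to 0.11 and Hoxd8 to -0.10. Hoxd8, at 0.00, was -0.01 with log2(CPM + 1), -0.05 with median centring, -0.05 with quantile normalization and 0.00 by voom. Leaving out each library in turn gave -1.12 to 0.26 for Hoxa9, -1.67 to 0.46 for Hoxa10, -0.16 to 0.33 for Hoxc4, -0.05 to 0.49 for Hoxc6 and -0.09 to 0.06 for Hoxd8. For Hoxd11 it gave -0.50 to 0.28, but without null replicate 2 this gene was under the filter and has no value. In null replicates 1 and 3 Hoxd11 lay at -0.79 and -0.28 log2 CPM, against a wild-type mean of 0.24. The filter was applied anew in each fit with a library left out, so the set of tested members differed between them. Over these fits the median change of the tested members ranged from -0.05 to 0.34, that of positions 1 to 4 from 0.19 to 0.74, of positions 5 to 8 from 0.07 to 0.78 and of positions 9 to 13 from -0.57 to -0.05. Without both libraries numbered 3, an alternative chosen after seeing the data, no Hox member passed and the median was 0.26. With 50 kb in place of 10 kb, 22 Hox members had a peak (61.1% against 61.7% of all rows), and with 5 kb there were 2 (5.56% against 20.9%). At a score of at least 100 no Hox member had a peak, a count of 0 against 14.3% of all rows, and 0 peaks lay inside the clusters, where a margin of 50 kb gave 7.

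The labels do not say what the replicate numbers stand for, and no pairing by number was seen. Deviations of libraries with the same number correlated at -0.09, -0.22 and -0.04, and wild-type replicate 1 correlated best with null replicate 2 (0.23). With 3 libraries per genotype these correlations cannot exclude a pairing. A fit with the replicate number as a block gave 0 Hox members past the threshold and a median change of 0.26. It changed no call of a Hox or cofactor gene, while over all tested rows it called 2, against 1 in the main fit. Members of low count are limited by depth, since 3 reads are worth 0.103 to 0.126 CPM.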

Other observations

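The Hox clusters also hold 16 rows that are not Hox genes, mostly noncoding or unnamed models: 7 in Hoxa, 6 in Hoxb, 3 in Hoxd and none in Hoxc. Of these 6 were tested, and none passed an adjusted p of 0.05 by limma. In the Hoxb cluster, between Hoxb13 and Hoxb9, Gm53 had 1254, 1346 and 1388 reads in the wild-type libraries and 1439, 1377 and 1326 in the null libraries, a change of 0.07 (SE 0.10) and a range of 1.19-fold in CPM. Gm11539, the row nearest to the peak of score 52.86, had 1495, 1524 and 1744 wild-type reads against 1339, 1705 and 1205 null reads (-0.17, SE 0.14). Both were steady where the Hoxb5 to Hoxb8 genes on the other side of Hoxb9 were not, but they also had far more reads. Their means were 5.67 and 5.81 log2 CPM, against -0.24 to 2.66 for Hoxb5 to Hoxb8. Over all tested rows the median residual SD was 0.36 at 0 to 2 log2 CPM and 0.18 at 4 to 6. Hoxb3os, on the strand opposite to Hoxb3 and Hoxb2, had 96, 74 and 54 wild-type reads against 82, 90 and 73 null reads (0.17, SE 0.29), with overlapping genotypes. Without knowledge of strand in the counting, its reads cannot be told apart from those of the Hox genes it overlaps.

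Hoxa11as, antisense to Hoxa11, had 16, 41 and 0 wild-type reads against 2, 65 and 9 null reads, high in the same libraries as Hoxa11, and the same limit holds for this pair. In the Hoxd cluster Gm14396 had a change of -0.51 (SE 0.36), 1700109F18Rik, opposite to Hoxd8 and Hoxd3, one of -0.40 (SE 0.41), and 6720416L17Rik one of 0.14 (SE 0.35). The other rows were under the filter. Gm11536, opposite to Hoxb3, had 4, 5 and 1 wild-type reads against 5, 15 and 8 null reads. 9930038K12Rik, on the strand of Hoxa9, had 40, 23 and 4 wild-type reads against 8, 20 and 8 null reads. Gm15051, 5730446D14Rik, Gm15050, 2700086A05Rik, 5730596B20Rik, Gm11538 and 0610040B09Rik had at most 19 reads in any library.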
